A study of Drosophila melanogaster with 9 samples.

Results

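Genes that mark and build the somatic cells of the fly ovary were followed across 9 Drosophila melanogaster RNA-seq libraries. The set holds 9 genes, tj, Fas3, eya, cas, zfh1, Wnt4, mirr, slbo and ptc, of the 17611 genes in the deposited count table. They were chosen by name, as known ovarian somatic regulators and markers, at a time when earlier results of these data were known. All 9 were present in the table.

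RNA-seq of poly-A RNA covered 3 libraries each of an L(3)mbt mutant, a Lint-O mutant and yw, all labelled as brain of L3 larvae that were reared at 29 °C for 5 to 6 days after eggs were laid at 25 °C. L(3)mbt is a chromatin protein whose loss gives malignant brain tumours, and Lint-O was found by the study as its partner. The study's methods name the L(3)mbt allele as ts1, a temperature-sensitive allele in a w background, and the Lint-O allele as a small CRISPR-Cas9 deletion on the y w chromosome of the control strain. If the libraries are as labelled, the L(3)mbt mutant differs from yw in strain background as well as in the allele. It likewise differs from the Lint-O mutant in strain background as well as in the mutated gene. The effects of these cannot be told apart here. The comparisons ask whether the ovarian somatic programme is altered when either protein is impaired. The study calls these libraries biological triplicates. The labels do not say what separated the replicates, and p-values measure the spread between the libraries.

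The somatic cells of the ovary surround the germline. Escort cells line the germarium, where germline stem cells divide, and follicle stem cells give rise to the epithelium that encloses each egg chamber. That epithelium then splits into polar cells, stalk cells, main-body follicle cells and the migratory border cells. The cells are told apart by transcription factors and adhesion molecules, and their fates are set by Hedgehog, Wnt, Notch and JAK/STAT signals. Several of the 9 genes also act in the nervous system or the eye, so their presence in a library does not by itself identify ovarian tissue.

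Total counts ran from 18681293 to 31519287 per library, and 13869 genes had a count in at least 1 library. Each targeted gene was lower in the group labelled as its mutant, which does not show how it was lowered. l(3)mbt had 76.3, 84.1 and 75.9 CPM (the count scaled to the library total) in the L(3)mbt mutant, against 123, 141 and 140 CPM in yw. Lint-O had 3.88, 3.50 and 3.64 CPM in the Lint-O mutant, against 21.6, 21.3 and 21.0 CPM in yw.

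The labelled tissue was checked against marker genes. Of 8 neuroblast markers, 5 (dpn, ase, grh, klu and pros) stayed under 1 CPM in every library and only insc exceeded 10 CPM in every library. Of 7 neuronal markers, nSyb, brp, Syt1 and fne stayed under 1 CPM throughout, while elav, Syx1A and cac exceeded 10 CPM. Of 5 glial markers, repo and gcm stayed under 1 CPM, while moody, loco and nrv2 exceeded 10 CPM. The neural markers were thus divided in all 9 libraries, mutants and yw alike: several that define neuroblasts, neurons and glia were near absent, while others were well detected, from insc (22.4 to 33.2 CPM) to loco (132 to 173 CPM). Of 5 muscle markers, Mef2, Mhc, Act57B and how exceeded 10 CPM in every library. Of the ovarian somatic genes, 6 of the 9 exceeded 10 CPM in every library, as did 12 of 19 further ovarian somatic regulators, among them piwi (1379 to 1752 CPM), the core gene of the somatic piRNA pathway, and fs(1)Yb (138 to 166 CPM), its ovarian somatic partner. Genes of late follicle cells were low: of 11 yolk, vitelline membrane and chorion genes, 7 stayed under 1 CPM and Cp16, Cp36 and Cp38 had no count in any library. The yw columns are named EGFP in the sample descriptions. The study also sequenced RNA of cultured ovarian somatic cells depleted of either targeted protein, with GFP siRNA as the control. The groups are called by their labels throughout. Whether the counts come from larval brain, as labelled, or from such cultured cells was not tested.

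**Figure D1:**
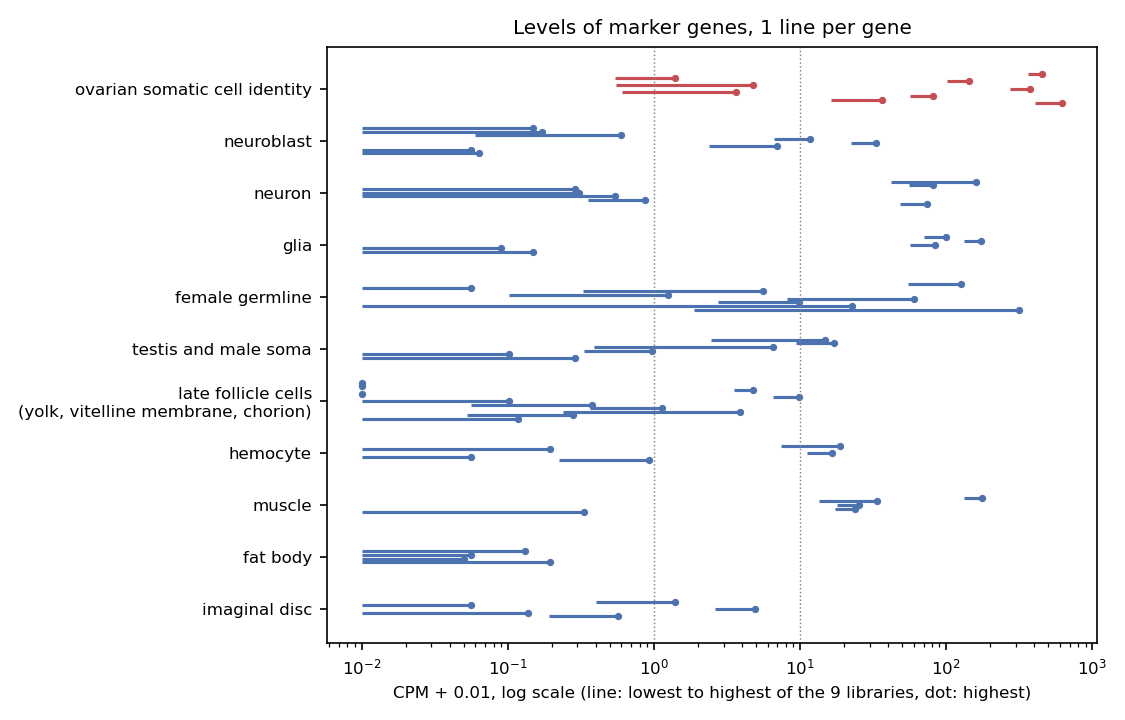
Levels of marker genes for 11 cell classes, on a log axis of CPM + 0.01. Each line is 1 gene and spans its lowest to highest value over the 9 libraries, the dot marks the highest value, and dotted lines mark 1 and 10 CPM. Of the 9 identity genes, 6 lie wholly to the right of 10 CPM, whereas 5 of 8 neuroblast genes and 4 of 7 neuronal genes lie wholly to the left of 1 CPM.

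The levels of the identity genes formed a graded series. Levels between genes were compared as RPKM, CPM per kilobase of measurable exon. In the L(3)mbt mutant the order was tj (136 ± 15.0 RPKM, SD, n = 3), ptc (72.4 ± 2.23), zfh1 (49.3 ± 6.20), mirr (32.5 ± 4.29), eya (22.0 ± 0.109), Fas3 (5.11 ± 0.432), Wnt4 (1.28 ± 0.194), cas (1.06 ± 0.132) and slbo (0.428 ± 0.0637). In the Lint-O mutant the order of the 9 genes was the same, with tj at 164 ± 11.7 RPKM at the top and slbo at 0.245 ± 0.0626 RPKM at the bottom. In yw it again began with tj (155 ± 34.3), ptc (69.1 ± 3.42), zfh1 (44.9 ± 3.88), mirr (26.5 ± 0.426), eya (15.6 ± 0.224) and Fas3 (2.66 ± 0.185), but slbo (0.407 ± 0.0190) then stood above Wnt4 (0.238 ± 0.0902) and cas (0.228 ± 0.0563). Among neighbours in these orders, the libraries of Wnt4 and cas overlapped in every group and those of cas and slbo overlapped in the Lint-O mutant. All other neighbours were separated. By RPKM tj ranked 646, 515 and 539 of 15910 genes in the L(3)mbt mutant, the Lint-O mutant and yw.

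**Figure D2:**
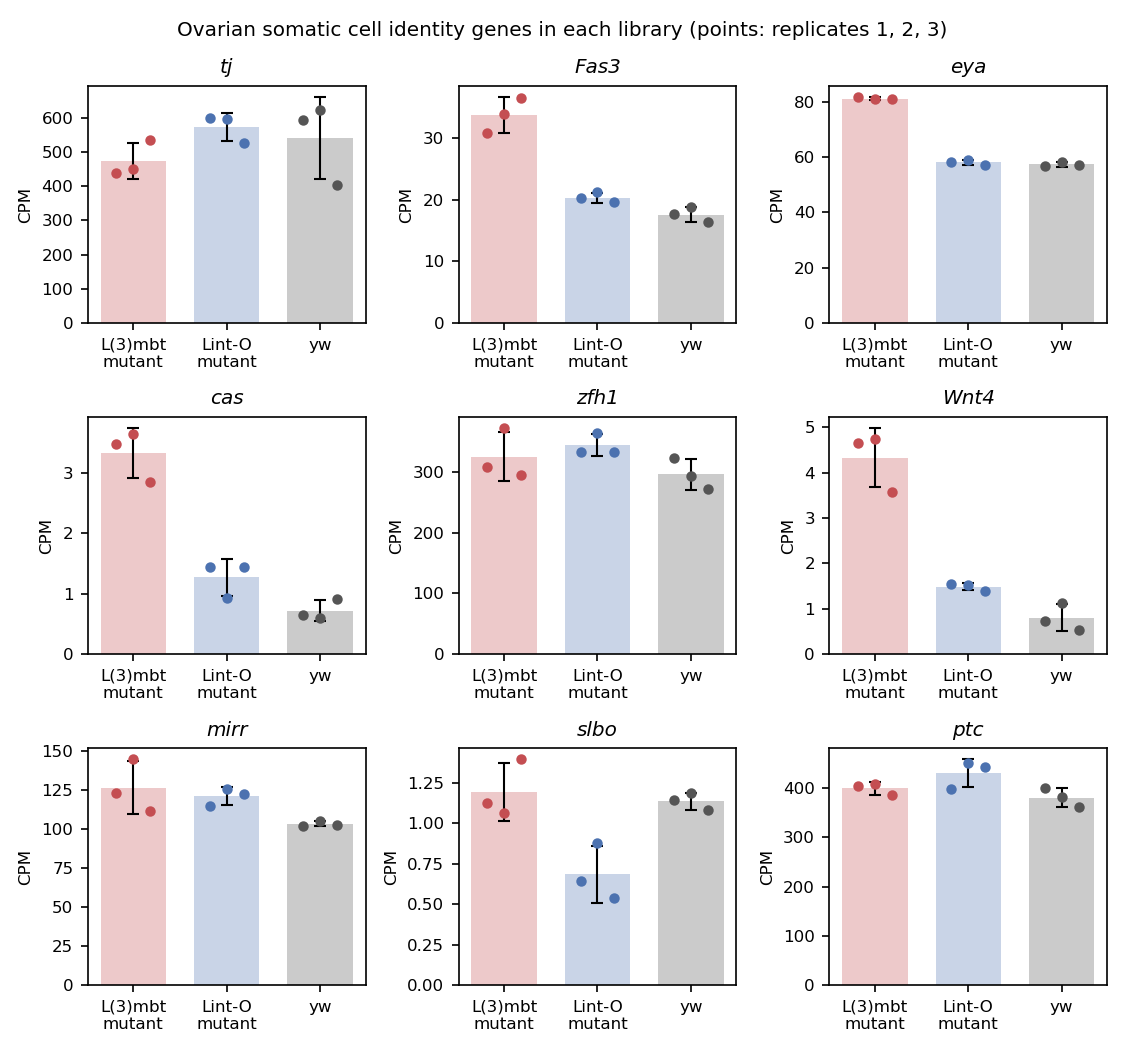
CPM of the 9 identity genes in each library, from the L(3)mbt mutant at the left through the Lint-O mutant to yw at the right. Bars are means and error bars 1 SD (n = 3), points are replicates 1, 2 and 3, and each panel has its own axis from 0. Fas3, eya, cas and Wnt4 stand higher in the L(3)mbt mutant than in every library of both other groups, and tj in yw replicate 3 (403 CPM) lies far under the other yw libraries.

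The L(3)mbt mutant had higher levels of 4 identity genes than yw: Wnt4 by 5.33-fold, cas by 4.35-fold, Fas3 by 1.85-fold and eya by 1.36-fold. A secreted signal, a transcription factor, an adhesion molecule and a transcriptional cofactor were therefore all among them. The remaining 5 genes, including tj and ptc, were not called, and none was lower. The threshold for a call was an adjusted p of 0.01 (DESeq2, two-sided Wald test over all genes, Benjamini-Hochberg adjustment). The 4 of 9 genes called higher stand beside 18.1% of all 10687 genes tested, with 12.6% called lower. Of the 4, cas and Wnt4 were 2-fold or more higher, beside 10.1% of all genes. The median log2 fold change of the 9 genes was 0.23, against -0.0060 over all genes tested. As these are bulk samples, more cells of a type and more RNA per cell cannot be told apart in these or any later values.

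Wnt4 encodes a secreted Wnt ligand that escort cells produce in the germarium. It lies on chromosome 2L from 7255419 to 7277171 on the minus strand (dm6 coordinates, 1-based, as for every gene here). Wnt4 had 4.65, 4.75 and 3.58 CPM (116, 103 and 100 reads) in the L(3)mbt mutant. It had 1.54, 1.52 and 1.39 CPM (36, 33 and 26 reads) in the Lint-O mutant and 0.731, 1.13 and 0.539 CPM (16, 23 and 17 reads) in yw. All 3 L(3)mbt libraries were above all Lint-O libraries, and these in turn were above all yw libraries. The log2 fold change of Wnt4 in the L(3)mbt mutant was 2.41 ± 0.31 (SE; adjusted p = 1.71e-13 by DESeq2). In the Lint-O mutant it was 0.88 ± 0.34 (adjusted p = 0.0341), which missed the threshold of 0.01.

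cas encodes Castor, a zinc finger transcription factor of polar and stalk cell precursors that also times neuroblast divisions. It lies on chromosome 3R from 5712975 to 5716805 on the minus strand. cas had 3.49, 3.64 and 2.86 CPM (87, 79 and 80 reads) in the L(3)mbt mutant. It had 1.45, 0.922 and 1.45 CPM (34, 20 and 27 reads) in the Lint-O mutant and 0.639, 0.592 and 0.920 CPM (14, 12 and 29 reads) in yw. The L(3)mbt libraries were all above the others, and Lint-O replicate 2 came level with yw replicate 3. Against yw, cas had a log2 fold change of 2.12 ± 0.33 in the L(3)mbt mutant (adjusted p = 2.27e-09 by DESeq2). The Lint-O value was 0.74 ± 0.36 (adjusted p = 0.112). With 12 to 87 reads a library, cas, like Wnt4, was measured less precisely than the abundant genes.

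Fas3 encodes Fasciclin III, an immunoglobulin-family adhesion molecule at the lateral membranes of early follicle cells and later of polar cells. It lies on chromosome 2L from 18320102 to 18393441 on the plus strand. Fas3 had 30.8, 33.9 and 36.5 CPM in the L(3)mbt mutant. It had 20.3, 21.2 and 19.6 CPM in the Lint-O mutant and 17.7, 18.7 and 16.3 CPM in yw. The 3 groups did not overlap, although the step between the Lint-O mutant and yw was small. Against yw, Fas3 had a log2 fold change of 0.89 ± 0.10 in the L(3)mbt mutant (adjusted p = 1.05e-17 by DESeq2). In the Lint-O mutant it was 0.16 ± 0.10 (adjusted p = 0.254), with a 95% interval from -0.04 to 0.37.

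eya encodes Eyes absent, a transcriptional cofactor and phosphatase that follicle cells lose when they become polar cells and that is also required for the eye. It lies on chromosome 2L from 6527447 to 6546976 on the minus strand. eya had 81.7, 80.9 and 81.1 CPM in the L(3)mbt mutant. It had 58.4, 58.9 and 57.3 CPM in the Lint-O mutant and 56.8, 58.3 and 57.2 CPM in yw. Replicates agreed closely and the Lint-O and yw libraries were interleaved. Against yw, eya had a log2 fold change of 0.44 ± 0.06 in the L(3)mbt mutant (adjusted p = 8.18e-12 by DESeq2). The Lint-O value was -0.03 ± 0.06 (adjusted p = 0.774, 95% interval -0.16 to 0.09). The change of eya was the smallest of the 4 called.

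**Figure D3:**
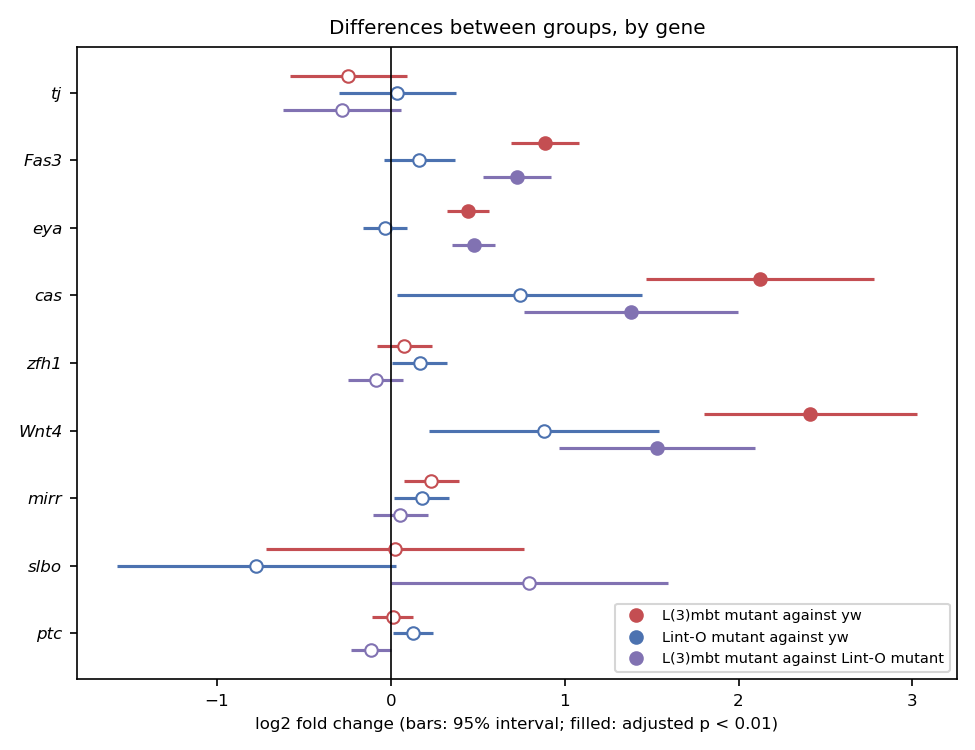
Log2 fold changes of the 9 identity genes in the L(3)mbt mutant against yw, the Lint-O mutant against yw, and the L(3)mbt mutant against the Lint-O mutant. Bars are 95% intervals from the DESeq2 standard errors, and filled points mark an adjusted p under 0.01. Fas3, eya, cas and Wnt4 are filled in both comparisons that involve the L(3)mbt mutant, and no gene is filled for the Lint-O mutant against yw.

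The abundant genes mirr, zfh1 and ptc differed little between groups. mirr encodes Mirror, an Iroquois homeodomain protein that patterns the dorsal anterior follicle cells and also the eye (chromosome 3L, 12693639 to 12710249, plus strand). mirr had 123, 144 and 112 CPM in the L(3)mbt mutant, 115, 126 and 123 CPM in the Lint-O mutant, and 102, 105 and 102 CPM in yw. Every mutant library was above every yw library. Against yw, mirr had a log2 fold change of 0.23 ± 0.08 in the L(3)mbt mutant, just outside the threshold (adjusted p = 0.0109 by DESeq2). The Lint-O value was 0.18 ± 0.08 (adjusted p = 0.0814). mirr passed the threshold without L(3)mbt replicate 3 (0.31, adjusted p = 0.000292 by DESeq2). It also passed in 3 other alternative fits given in the closing section.

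zfh1 encodes a zinc finger and homeodomain repressor of escort cells that also acts in motor neurons and, in the testis, in somatic stem cells (chromosome 3R, 30765926 to 30789202, plus strand). zfh1 had 308, 372 and 296 CPM in the L(3)mbt mutant, 334, 365 and 334 CPM in the Lint-O mutant, and 323, 294 and 272 CPM in yw. The L(3)mbt and yw libraries overlapped, whereas the Lint-O libraries were all above yw. Log2 fold changes against yw were 0.08 ± 0.08 for L(3)mbt and 0.17 ± 0.08 for Lint-O (adjusted p = 0.476 and 0.112 by DESeq2). Of the exon length of zfh1, 4.56% lies opposite exons of another gene, and the other 8 identity genes share none.

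ptc encodes Patched, the receptor of Hedgehog and itself a Hedgehog target, which is strong in escort cells and early follicle cells (chromosome 2R, 8649649 to 8665223, plus strand). ptc had 405, 409 and 386 CPM in the L(3)mbt mutant, 399, 451 and 444 CPM in the Lint-O mutant, and 400, 382 and 362 CPM in yw. Each mutant overlapped yw. Against yw, ptc had a log2 fold change of 0.01 ± 0.06 in the L(3)mbt mutant (adjusted p = 0.911 by DESeq2), with a 95% interval from -0.11 to 0.13. In the Lint-O mutant it was 0.13 ± 0.06 (adjusted p = 0.0983).

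tj encodes Traffic jam, a large Maf transcription factor that ovarian somatic cells require and that drives piwi in them (chromosome 2L, 19464267 to 19467758, plus strand). tj had 438, 449 and 534 CPM in the L(3)mbt mutant. It had 598, 596 and 526 CPM in the Lint-O mutant and 594, 623 and 403 CPM in yw. yw replicate 3 was the lowest of all 9 libraries, so that the yw range enclosed both mutants. Log2 fold changes against yw were -0.24 ± 0.17 for L(3)mbt and 0.04 ± 0.17 for Lint-O (adjusted p = 0.270 and 0.916 by DESeq2). Without yw replicate 3 the value for the L(3)mbt mutant was -0.41 and passed the threshold (adjusted p = 3.53e-06 by DESeq2), so this 1 library decided the call. The value for the Lint-O mutant then was -0.13 and was not called (adjusted p = 0.263).

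slbo encodes the C/EBP factor Slow border cells, which border cells need in order to migrate (chromosome 2R, 24331522 to 24334307, minus strand). slbo had 1.12, 1.06 and 1.39 CPM (28, 23 and 39 reads) in the L(3)mbt mutant. It had 0.640, 0.876 and 0.535 CPM (15, 19 and 10 reads) in the Lint-O mutant and 1.14, 1.18 and 1.08 CPM (25, 24 and 34 reads) in yw. The Lint-O libraries were all below both other groups. At these 10 to 39 reads a library the log2 fold change of -0.77 ± 0.41 in the Lint-O mutant was not called (adjusted p = 0.152 by DESeq2). The L(3)mbt value was 0.02 ± 0.38, with a 95% interval from -0.72 to 0.77.

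In the Lint-O mutant none of the 9 genes was called by DESeq2 against yw, and none by edgeR's quasi-likelihood test. By DESeq2, 13.4% of the 10422 genes tested were called higher and 7.52% lower. At an unadjusted p under 0.05, 5 of the 9 (cas, zfh1, Wnt4, mirr and ptc) were higher and none lower, against 37.1% of all genes in either direction. The median log2 fold change of the 9 genes was 0.16, against 0.0052 over all genes. Groups did not overlap for 4 genes that were higher in the Lint-O mutant (Fas3, zfh1, Wnt4 and mirr) and for slbo, which was lower, with 23.1% and 19.9% of all genes doing so in these directions. At an adjusted p under 0.05 only Wnt4 would be called, beside 28.6% of all genes. For the L(3)mbt mutant against yw, groups did not overlap for 5 genes, all higher (Fas3, eya, cas, Wnt4 and mirr), with 27.6% of all genes higher in this way. Both comparisons use the same yw libraries.

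The mutants were then set against each other, which tests whether their levels differed. If the libraries are as labelled, strain background and mutated gene cannot be told apart in this comparison either. The same 4 genes were called higher in the L(3)mbt mutant than in the Lint-O mutant, beside 9.22% of the 9097 genes tested. Of these, cas and Wnt4 differed 2-fold or more, beside 2.67% of all genes. Groups did not overlap for these 4 and for slbo, all higher in the L(3)mbt mutant, beside 23.3% of all genes. The log2 difference was 1.53 ± 0.29 for Wnt4 (adjusted p = 2.22e-06 by DESeq2) and 1.38 ± 0.31 for cas (adjusted p = 0.000149). It was 0.72 ± 0.10 for Fas3 (adjusted p = 1.79e-11) and 0.48 ± 0.06 for eya (adjusted p = 1.03e-12). The values of the other 5 genes ran from -0.28 for tj to 0.80 for slbo (adjusted p = 0.253 and 0.154), and none was called lower, against 5.71% of all genes. tj at -0.30 was called when the fit held these 2 groups alone (adjusted p = 0.000833 by DESeq2), and at -0.28 without yw replicate 3 (adjusted p = 0.000977).

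**Figure D4:**
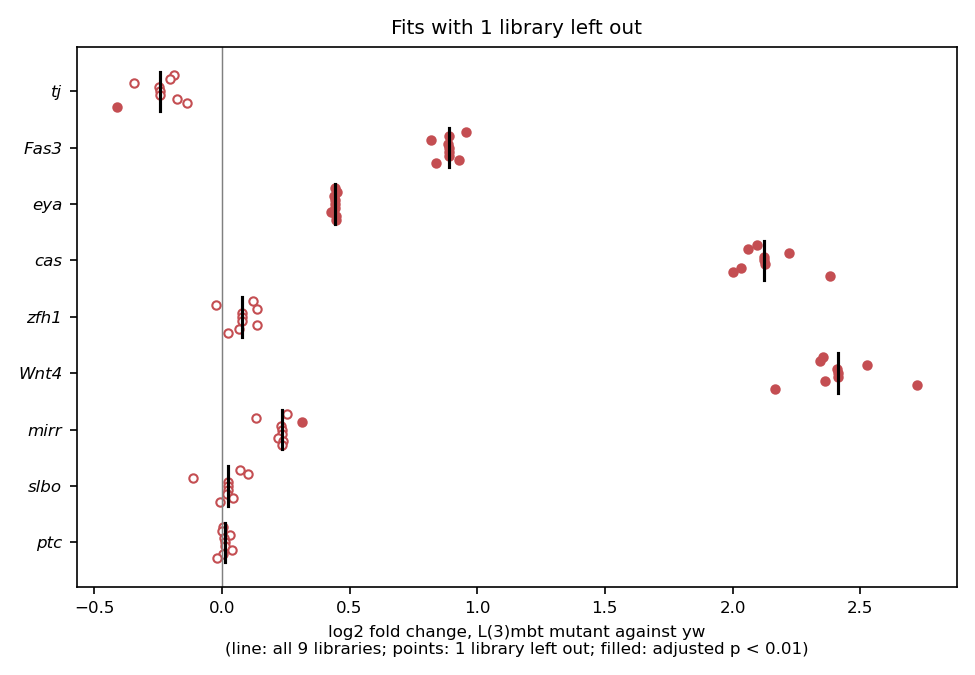
Log2 fold changes of the 9 identity genes in the L(3)mbt mutant against yw, with all 9 libraries (black line) and with each library left out in turn (points, filled at an adjusted p under 0.01). Fas3, eya, cas and Wnt4 are filled throughout, tj is filled only without yw replicate 3 (-0.41) and mirr only without L(3)mbt replicate 3 (0.31).

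Markers of some other cell types differed between the groups, and those of others did not. Of 8 female germline genes, 7 were tested, and 6 were called higher in each mutant than in yw. Their summed level was 466 to 536 CPM in the L(3)mbt mutant, 271 to 281 CPM in the Lint-O mutant and 69.8 to 75.0 CPM in yw, so the groups stood in the same order as for Wnt4 and Fas3. Of these 8 genes, otu stayed under 1 CPM in every library and ovo was above 10 CPM in every library, and none lacked counts altogether. Of 6 testis and male soma genes, 3 of 5 tested were called higher in each mutant, with summed levels of 32.3 to 34.6 CPM in the L(3)mbt mutant, 35.7 to 38.4 CPM in the Lint-O mutant and 13.7 to 15.2 CPM in yw. Of 7 neuronal genes, 6 were tested, with 1 higher and 1 lower in L(3)mbt, and 1 was higher in Lint-O. Their summed level was 229 to 278 CPM in the L(3)mbt mutant, 245 to 274 CPM in the Lint-O mutant and 146 to 213 CPM in yw, and cac, a calcium channel gene, was the one higher in both (1.45 ± 0.10 and 1.46 ± 0.10). Glial genes ran the other way, with 2 of 3 tested lower in L(3)mbt and 1 in Lint-O. Their sums were 292 to 297 CPM in the L(3)mbt mutant, 297 to 316 CPM in the Lint-O mutant and 312 to 342 CPM in yw. Muscle genes summed to 227 to 251 CPM in the L(3)mbt mutant, 226 to 233 CPM in the Lint-O mutant and 190 to 234 CPM in yw, with 1 of 5 higher in L(3)mbt. Neuroblast genes summed to 44.9 to 45.6 CPM in the L(3)mbt mutant and 40.4 to 43.0 CPM in the Lint-O mutant. Both ranges lay within that of yw, 39.5 to 46.3 CPM. Of 4 neuroblast genes tested, 1 was higher in each mutant and 1 lower in L(3)mbt. Imaginal disc genes summed to 5.40 to 6.51 and 5.30 to 6.19 CPM in these mutants, above yw at 3.80 to 5.11 CPM. Of these 5 genes, 3 were tested and none was called in either mutant, and vg, nub and pdm2 stayed under 1 CPM throughout. The part of any of these classes in the values of the identity genes was not tested.

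Correlations between the identity genes over the 9 libraries are given as a description. For the 4 called genes, which were all high in the L(3)mbt mutant, a high r follows from those calls. Pearson's r of log2(normalized count + 1) was 0.95 between Fas3 and eya, 0.94 between Fas3 and Wnt4 and 0.90 between cas and Wnt4. It was 0.89 between Fas3 and cas, 0.88 between eya and Wnt4 and 0.87 between eya and cas. zfh1 went with ptc (0.71) and mirr (0.71), whereas tj and cas ran opposite (-0.64). These r values describe 9 libraries in 3 groups and share their depth and normalization.

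The genes most like each identity gene were sought among 8933 genes whose mean normalized count reached 10, by the same r over 9 libraries. For tj they were Nipped-B (0.998), Stlk (0.995) and Gprk1 (0.994), genes of a cohesin loader, a Ste20-like kinase and a G protein-coupled receptor kinase. All 3 lie between 4322295 and 4729017 on chromosome 2R, near its centromere, unlike tj on 2L. Nipped-B had 267, 288 and 398 CPM in the L(3)mbt mutant, 539, 533 and 422 CPM in the Lint-O mutant, and 547, 615 and 232 CPM in yw. As with tj, yw replicate 3 was the lowest library and L(3)mbt replicates 1 and 2 came next. The spread was wider than for tj, 2.65-fold between the highest and lowest library against 1.55-fold.

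For the called genes the most similar were other genes high in the L(3)mbt mutant. They were Pxd (0.987), CG11638 (0.985) and hwt (0.981) for Fas3, and Dlc90F (0.991), Indy (0.988) and CG4267 (0.988) for eya. For cas they were Ccdc114 (0.986), serp (0.984) and Mos (0.983), and for Wnt4 l(3)neo38 (0.988), CG16758 (0.986) and Mlf (0.982). Ccdc114 had 3.57, 3.92 and 3.65 CPM in the L(3)mbt mutant, 0.683, 0.507 and 0.642 CPM in the Lint-O mutant, and 0.137, 0.148 and 0.286 CPM in yw, a steeper order than that of cas. For the other genes likeness was lower. The most similar were hts (0.946) for zfh1, CG30389 (0.950) for mirr, levy (0.916) for slbo and CG13708 (0.964) for ptc.

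The pathways in which the identity genes act were examined next. Of 14 Hedgehog pathway genes tested against yw, the L(3)mbt mutant had 1 higher and 2 lower, and the Lint-O mutant 1 higher and 1 lower. shf, a secreted protein that helps Hedgehog spread, was the one higher in both, with 20.5 to 22.2 CPM in the L(3)mbt mutant, 10.6 to 13.0 CPM in the Lint-O mutant and 3.60 to 4.16 CPM in yw. Its log2 fold changes were 2.39 ± 0.14 and 1.58 ± 0.14 (adjusted p = 2.54e-63 and 4.59e-26 by DESeq2). The glypican gene dlp was lower in both (-0.41 ± 0.07 and -0.29 ± 0.07), and its relative dally was lower in the L(3)mbt mutant (-0.25 ± 0.08). The ligand gene hh, itself at 54.9 to 69.1 CPM, was not called (-0.04 ± 0.08 for L(3)mbt and -0.19 ± 0.08 for Lint-O). The signal transducer smo (-0.04 ± 0.09 and 0.03 ± 0.09) and the transcription factor ci (-0.11 ± 0.15 and 0.20 ± 0.15) were not called either.

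Of 23 other Wnt pathway genes tested, the L(3)mbt mutant had 3 higher and 2 lower, and the Lint-O mutant 1 higher and 2 lower. The ligand gene Wnt2 was higher in both. It averaged 53.4 ± 3.09 CPM in the L(3)mbt mutant, 33.6 ± 2.02 CPM in the Lint-O mutant and 16.4 ± 1.12 CPM in yw (SD, n = 3 each). The 3 groups did not overlap, in the same order as for Wnt4. Log2 fold changes of Wnt2 were 1.63 ± 0.09 and 0.97 ± 0.09 (adjusted p = 1.00e-69 and 1.36e-23 by DESeq2). The receptor gene fz2 was lower in both (-0.31 ± 0.08 and -0.30 ± 0.08). pygo, a nuclear co-activator of Wnt targets, was higher in the L(3)mbt mutant (0.36 ± 0.08), and the ligand gene Wnt6 was lower in the Lint-O mutant (-0.57 ± 0.15).

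Among partners of Eya and relatives of Mirror, 7 of 10 genes were tested, with 2 higher in L(3)mbt and 1 in Lint-O mutants. so, the homeodomain partner of Eya, was higher in the L(3)mbt mutant (0.30 ± 0.07, adjusted p = 0.000130 by DESeq2) and not called in the Lint-O mutant (0.02 ± 0.07), and the direct difference of 0.28 ± 0.07 was called (adjusted p = 0.000915). These calls matched those of eya. ey, the Pax6 gene of the eye, was higher in both mutants (3.18 ± 0.45 and 2.96 ± 0.46), with 2.08 to 2.36 CPM in the L(3)mbt mutant, 1.79 to 1.98 CPM in the Lint-O mutant and 0.0952 to 0.365 CPM in yw. The Iroquois genes ara and caup, relatives of mirr, stayed under 1 CPM in every library.

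Of 8 relatives and co-repressors of Castor and Zfh1, 4 were tested. zfh2, a relative of zfh1, was higher in the L(3)mbt mutant (1.58 ± 0.49, adjusted p = 0.00419 by DESeq2), and the co-repressor gene gro was lower in the Lint-O mutant (-0.17 ± 0.05). The neuroblast timing genes hb, Kr, nub and pdm2, which act before cas in the embryonic nervous system, stayed under 1 CPM in every library. Among 13 Maf, C/EBP and other bZIP genes related to tj and slbo, none was higher in either mutant, 2 were lower for L(3)mbt and 3 for Lint-O. Irbp18, a C/EBP-family gene, was lower in both (-0.53 ± 0.09 and -0.30 ± 0.09). The stress-response factor gene Atf3 was lower in the L(3)mbt mutant (-0.46 ± 0.10). The small Maf gene maf-S (-0.27 ± 0.08) and the ATF4 gene crc (-0.26 ± 0.07) were lower in the Lint-O mutant.

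**Figure D5:**
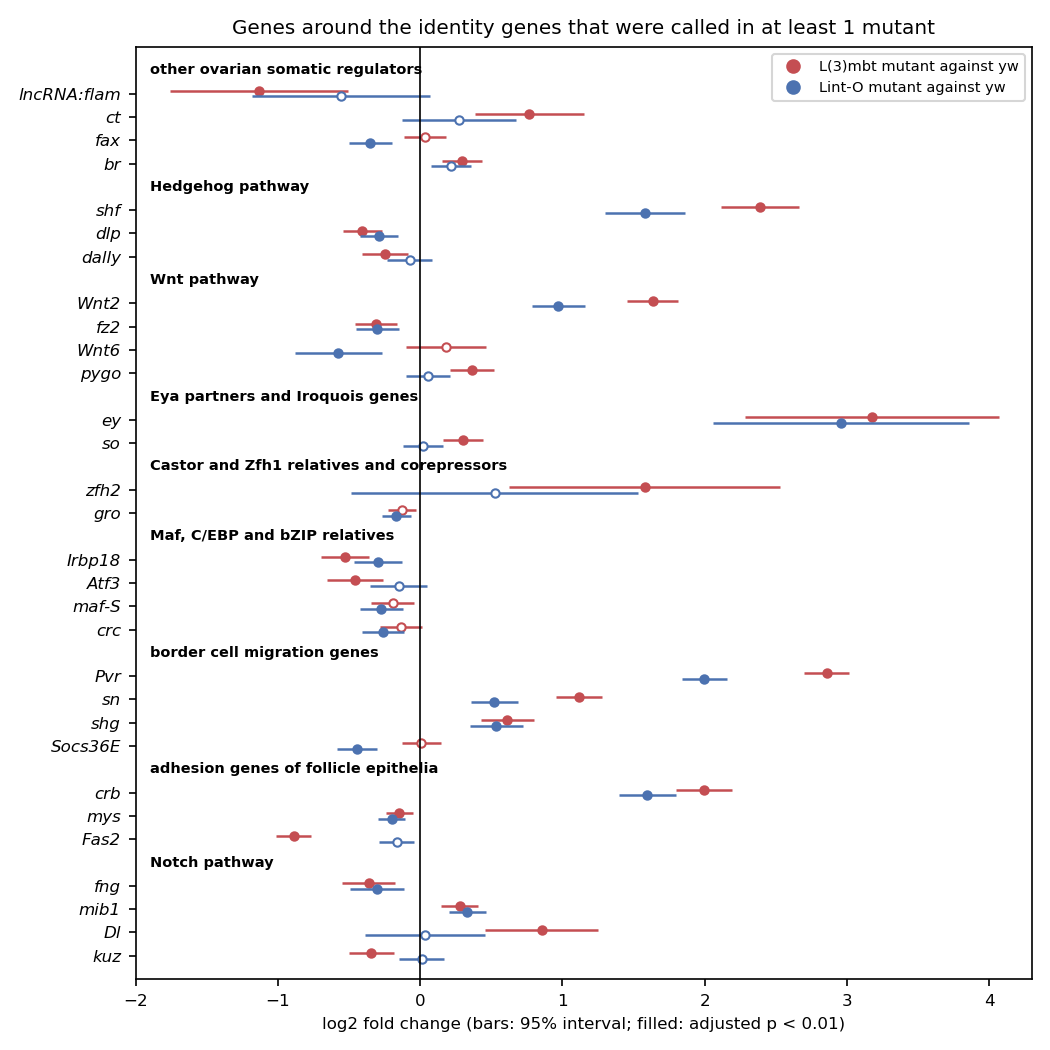
Log2 fold changes against yw of the genes named from the lists around the identity genes, for the L(3)mbt mutant (upper point of each gene) and the Lint-O mutant (lower point). Bars are 95% intervals and filled points mark an adjusted p under 0.01. Pvr, shf, crb, Wnt2 and ey lie furthest to the right, and Fas2 and flam furthest to the left in the L(3)mbt mutant.

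Of 12 border cell migration genes tested, 3 were higher and 1 lower in each mutant. Pvr, the PDGF and VEGF receptor that guides border cells, had 101, 97.0 and 101 CPM in the L(3)mbt mutant, 53.1, 57.0 and 54.4 CPM in the Lint-O mutant, and 13.0, 14.3 and 12.6 CPM in yw. Its log2 fold changes were 2.86 ± 0.08 and 2.0 ± 0.08 (adjusted p = 3.64e-276 and 2.12e-128 by DESeq2). sn, the actin-bundling fascin gene (1.12 ± 0.08 and 0.52 ± 0.08), and shg, the E-cadherin gene (0.61 ± 0.10 and 0.53 ± 0.10), were higher in both. Socs36E, a JAK/STAT feedback inhibitor gene, was lower in the Lint-O mutant (-0.44 ± 0.07) and not called in the L(3)mbt mutant (0.01 ± 0.07). slbo itself, the C/EBP factor of these cells, was called in neither.

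Among 19 adhesion and polarity genes of follicle epithelia, the L(3)mbt mutant had 4 higher and 2 lower, and the Lint-O mutant 2 higher and 1 lower, with shg counted here too. crb, the apical polarity gene, was higher in both (2.0 ± 0.10 and 1.60 ± 0.10), with 48.5 to 53.3 CPM in the L(3)mbt mutant, 35.8 to 43.7 CPM in the Lint-O mutant and 11.6 to 13.2 CPM in yw. Fas2, another immunoglobulin-family adhesion gene, moved opposite to Fas3. It had 118, 121 and 111 CPM in the L(3)mbt mutant, 190, 202 and 182 CPM in the Lint-O mutant, and 219, 207 and 194 CPM in yw. For L(3)mbt against yw its log2 fold change was -0.89 ± 0.06 (adjusted p = 8.43e-44 by DESeq2), and the direct difference between the mutants was -0.72 ± 0.06 (adjusted p = 2.50e-28). mys, a beta integrin gene, was slightly lower in both (-0.15 ± 0.05 and -0.20 ± 0.05).

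Of 12 Notch pathway genes, the L(3)mbt mutant had 2 higher and 4 lower, and the Lint-O mutant 2 higher and 1 lower. The ligand gene Dl was higher in the L(3)mbt mutant (0.85 ± 0.20, adjusted p = 0.000134 by DESeq2) and not called in the Lint-O mutant (0.03 ± 0.22). The Notch-modifying glycosyltransferase gene fng was lower in both (-0.36 ± 0.10 and -0.31 ± 0.10), and mib1, a ligase for the ligands, was higher in both (0.28 ± 0.07 and 0.33 ± 0.07). The protease gene kuz was lower in the L(3)mbt mutant (-0.34 ± 0.08).

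Of the 16 further ovarian somatic regulators tested, the L(3)mbt mutant had 3 higher and 1 lower, and the Lint-O mutant none higher and 1 lower. ct, a homeobox gene that Notch signals shut off in follicle cells (0.77 ± 0.20), br, an ecdysone response gene (0.30 ± 0.07), and piwi (0.16 ± 0.05) were the genes higher in the L(3)mbt mutant (adjusted p = 0.000421, 0.000157 and 0.00665 by DESeq2). flam, the piRNA cluster transcript of somatic cells, was lower there (-1.13 ± 0.32, adjusted p = 0.00160), with 11.9, 11.2 and 12.8 CPM in the L(3)mbt mutant, 20.4, 17.1 and 15.7 CPM in the Lint-O mutant, and 32.9, 29.3 and 13.7 CPM in yw. As for tj, yw replicate 3 was far below the other yw libraries. fax, an axon guidance gene, was lower in the Lint-O mutant (-0.35 ± 0.08) and not called in the L(3)mbt mutant (0.03 ± 0.08). piwi was not called in the Lint-O mutant (-0.02 ± 0.05, adjusted p = 0.876 by DESeq2). The study, in contrast, lists piwi among the genes raised in the brains of both mutants. In cultured ovarian somatic cells depleted of either targeted protein, the study reports piwi RNA as unchanged. The somatic piRNA gene fs(1)Yb was called in neither mutant (-0.03 ± 0.06 and 0.14 ± 0.06).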

How the data were processed

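The authors deposited 1 table of raw read counts per gene, which are not normalized and not pooled, with 1 column for each of the 9 libraries. All columns were assigned by the names in the sample descriptions. Per the study's methods and processing notes, poly-A libraries were aligned to dm6 with HISAT2, and featureCounts is named, with versions not given in the sources used here. Reads in exons shared by genes appear to be left out, since 573 of 581 genes with under 1% of exon length of their own had no count in any library (2710 of 12049 genes with no sharing), so RPKM used the remaining exon length (Ensembl release 115, which named 17559 of 17611 identifiers). CPM, RPKM and median-of-ratios normalized counts were computed here. DESeq2 1.42.0 (R 4.3.3), the study's tool, was fitted over all 9 libraries with 1 coefficient per group and default filtering, with calls at an adjusted p of 0.01. Values after ± are standard errors of log2 fold changes, or SD where marked. The fit was tested on simulated data. Total counts of 18681293 to 31519287 set the precision, and intervals cover the fitted spread between libraries only.

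The 9 genes and all lists were chosen with earlier results of these data known. From each list at most 4 called genes were named, first those called the same way in both mutants with the largest mean change, and for marker lists also the genes over 10 CPM or under 1 CPM in every library. hh, smo, ci, piwi, fs(1)Yb, l(3)mbt and Lint-O were named in addition, as the pathway's core genes, as tissue markers or as the targeted genes. The 3 genes most like each identity gene were ranked by Pearson's r. Alternatives were edgeR 4.0.16, other size factors, filters, thresholds and fits, a replicate block, and leaving out each library. No sequence was used.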

Additional observations from a re-analysis of the deposited data

Results flagged for a closer look

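The mutants differed for 4 identity genes when tested directly, with strain background not separated from the mutated gene. The L(3)mbt mutant exceeded the Lint-O mutant on the log2 scale by 1.53 for Wnt4 and by 1.38 for cas. It exceeded it by 0.72 for Fas3 and by 0.48 for eya. In each, all 3 L(3)mbt libraries were above all 3 Lint-O libraries, beside 23.3% of all genes tested. The adjusted p-values stand in the report, and these differences were called in all 16 alternative fits.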

How the results depend on the processing

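Fas3, eya, cas and Wnt4 stayed called in all 16 alternative fits, both for the L(3)mbt mutant against yw and against the Lint-O mutant, and no identity gene was called for the Lint-O mutant against yw in any. Of 432 values of single genes under an alternative, 414 kept direction and call, 7 became called and 11 changed sign. With an absolute log2 fold change of at least 1 required, 2 genes (cas and Wnt4) remained for the L(3)mbt mutant against yw and 2 against the Lint-O mutant. At an adjusted p under 0.05, the Lint-O mutant had 1 call (Wnt4). With a library left out, 4 to 5 genes were called in each L(3)mbt comparison and 0 for the Lint-O mutant against yw. mirr in the L(3)mbt mutant was called with total counts as size factors (0.29, adjusted p = 0.00171 by DESeq2) and with genes of at least 10 counts in 3 libraries only (0.24, adjusted p = 0.00881), and its adjusted p ran from 0.000292 to 0.151 over the alternatives. Adjusted p for tj ran from 3.53e-06 to 0.642.

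All changes of sign were of values that were not called. With TMM factors slbo was -0.0062 and ptc -0.0188 in the L(3)mbt mutant, ptc was -0.0156 by edgeR, and with total counts eya was 0.0195 in the Lint-O mutant. With 1 library left out, ranges for the L(3)mbt mutant against yw were -0.0233 to 0.14 for zfh1, -0.11 to 0.10 for slbo and -0.0191 to 0.0391 for ptc. The range was -0.13 to 0.15 for tj in the Lint-O mutant against yw and -0.0452 to 0.14 for mirr between the mutants. For tj in the L(3)mbt mutant the range was -0.41 to -0.14. The causes were not tested.

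The replicate numbers did not pair the libraries across all groups. Deviations from the group means correlated at -0.17 to 0.12 between libraries of the same number and at -0.09 to 0.16 between others. Of 9 libraries, 5 correlated best with one of their own number. Between the Lint-O mutant and yw alone, the values were 0.047 to 0.116 for the same number and -0.090 to 0.021 for others. With the replicate number as a block, calls against yw numbered 5 for L(3)mbt, the addition being mirr (0.23, adjusted p = 0.00698 by DESeq2), and 0 for Lint-O, and 4 genes were called between the mutants. Depth limits slbo, cas and Wnt4, with 10 to 116 reads a library.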
